A study of Mus musculus with 6 samples.

Results

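The 35 genes described here encode the enzymes that build cholesterol and fatty acids, the SREBP transcription factors with the proteins that control them, and 3 proteins that move sterols between membranes or out of the cell. They were chosen by name, as every probe set whose only annotated gene symbol equals one of the 35, and 34 of the 35 genes had such a probe set, out of 18193 genes on the array. The 34 genes were read by 81 of the 45101 probe sets. Acat2, the cytosolic acetoacetyl-CoA thiolase, had none. NK cells (NKC) came from spleens of Runx3-/- mice (3 arrays) and WT mice (3 arrays), all of the ICR strain, 6 weeks old and with no stimulation, so that the cells are called resting. Each array held RNA of an individual mouse according to the series' design text, while the sex label of every sample reads male and female. Runx3, a transcription factor of cytotoxic lymphocytes, is given as absent from the whole animal and not from NKC alone. Other spleen cells were first depleted with a kit, and DX5+ cells were then collected by flow sorting, DX5 being an integrin chain that basophils also carry.

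Cells build cholesterol from acetyl-CoA through the mevalonate pathway, which also supplies isoprenoids for ubiquinone, dolichol and protein prenylation, and then through squalene and a chain of sterol intermediates. When sterols are scarce in the endoplasmic reticulum, SCAP escorts SREBP to the Golgi, where it is cleaved and released to switch on most of these genes, and when sterols are plentiful, INSIG proteins hold the complex back. A surplus of oxysterols instead activates LXR, which raises the cholesterol exporters. In mouse NKC, SREBP activity is known for its part in the metabolic response to cytokines.

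In Runx3-/- NKC the cholesterol and fatty acid synthesis genes had a median difference from WT close to that of all genes, and 3 of them met the study's thresholds. Scd1, a fatty acid desaturase, was 3.16-fold higher, its paralog Scd2 was 2.09-fold lower, and Abca1, a cholesterol exporter, was 1.62-fold lower. The thresholds, which none of the other tested genes met, were taken as limma's unadjusted p below 0.05 and a difference of 1.5-fold or more. These 3 genes were 9.09% of the members tested, against 13.8% of all 9545 genes tested, so that calls were no more frequent among them than on the array as a whole. In 1 direction, 1 member of 33 was higher, against 4.89% of all genes, and 2 were lower, against 8.86%. After Benjamini-Hochberg (BH) adjustment over all 9545 genes 0 members passed 5%, against 0.608% of all genes, and the lowest limma adjusted p of a member was 0.189. At limma's unadjusted p under 0.05 there were 3 members of 33, against 1531 of the 9545 genes (16.04%).

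The module mean, the average log2 signal of the 33 tested genes, was 8.99, 8.74 and 8.65 on the Runx3-/- arrays and 8.76, 8.90 and 8.89 on the WT arrays. The groups overlapped, with the highest and the lowest value both in Runx3-/-. The means were 8.79 ± 0.17 in Runx3-/- and 8.85 ± 0.08 in WT (SD, n = 3 each), a difference of -0.058, and the same average over all tested genes differed by -0.081. The log2 change was below 0 for 21 of the 33 members (63.6%) and for 62.2% of all genes. Its median was -0.14 over the members and -0.13 over all genes. The median size of the change, regardless of sign, was 0.27 over the members and 0.30 over all genes. For 20 of the 33 members the 95% interval of the change stayed within 2-fold in both directions, and for the other 13 it reached past 2-fold, so that a change of that size lies within their error.

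**Figure D1:**
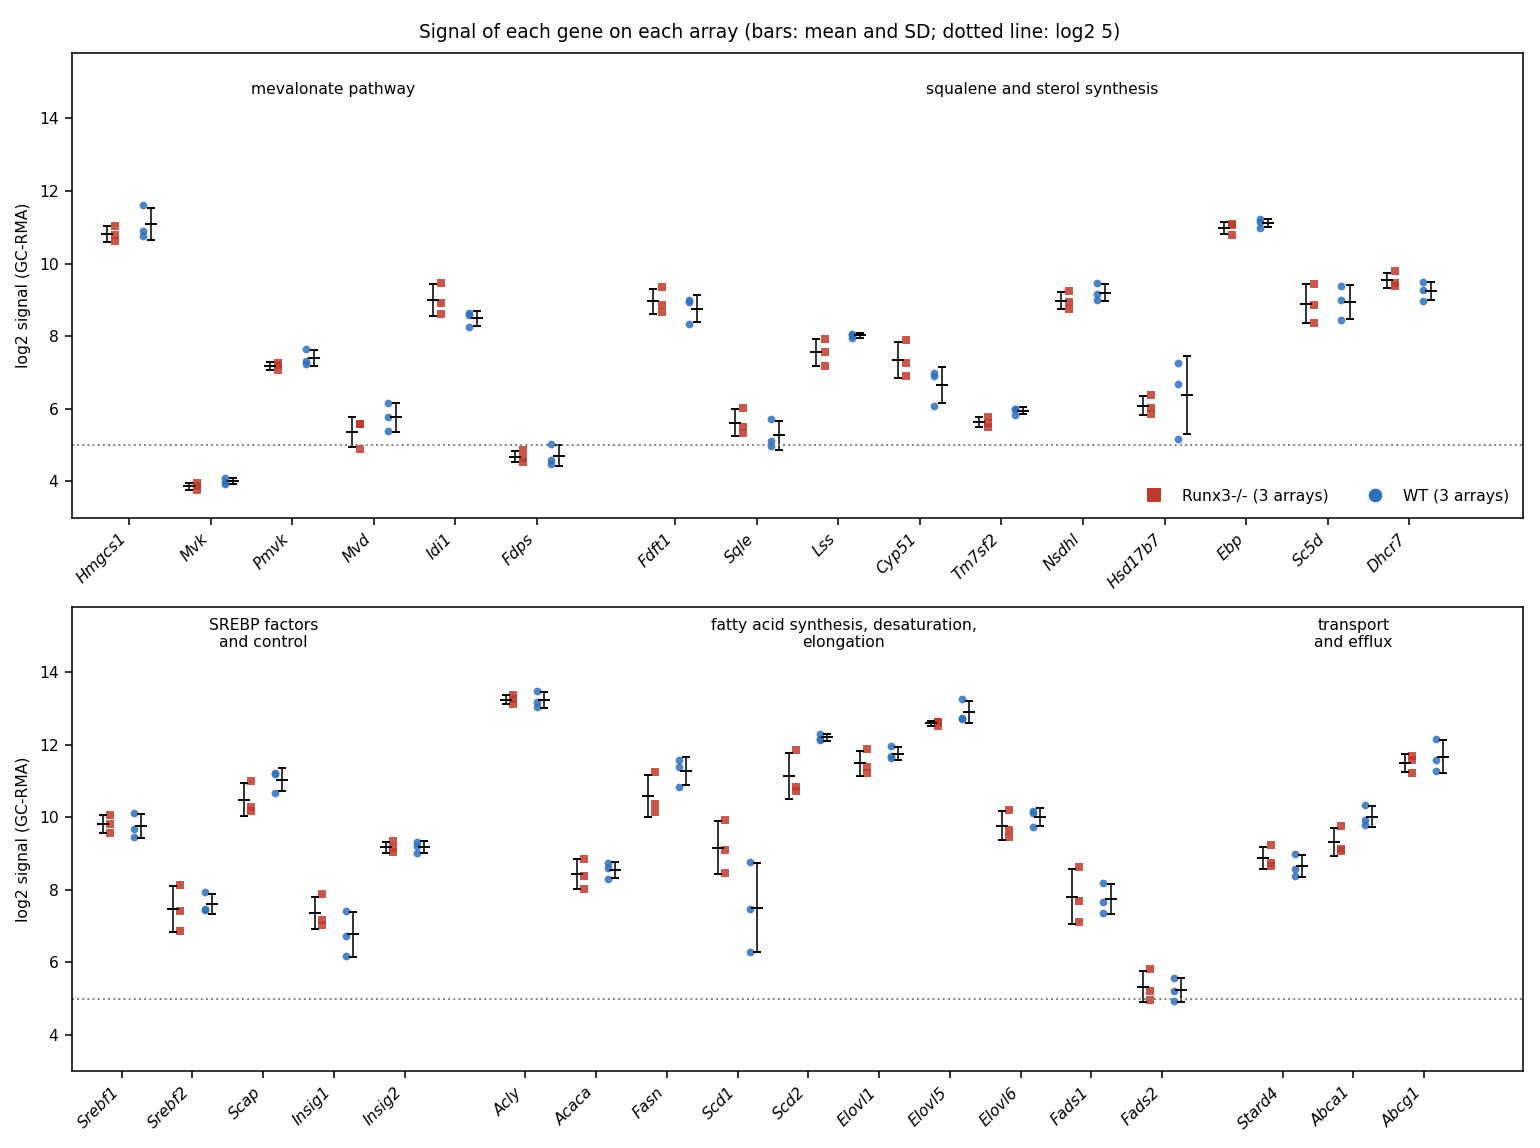
Log2 signal (GC-RMA, vertical axis) of the 34 genes on each array, with Runx3-/- arrays as red squares left of WT arrays as blue circles, and with a bar at the mean of the 3 arrays that spans 1 SD each way. The groups overlap for most genes, and those of Scd2, Abca1, Lss, Tm7sf2 and Elovl5 do not, with every Runx3-/- array below every WT array.

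In the mevalonate pathway none of the 5 tested genes of 7 met the thresholds, and the log2 changes ran from -0.41 to 0.50 with a median of -0.22. Idi1, the isomerase that makes the activated isoprene unit for chain building, had a log2 signal of 8.91, 9.46 and 8.61 on the Runx3-/- arrays and 8.64, 8.58 and 8.26 on the WT arrays. The change was 0.50 (1.42-fold, limma adjusted p = 0.393), and only the lowest Runx3-/- array lay within the WT range. On its other probe set all 3 Runx3-/- arrays lay above the WT arrays, with a change of 0.74. Mvd, which decarboxylates mevalonate diphosphate, had the lowest change of the group, -0.41 (limma adjusted p = 0.516). Hmgcs1, the synthase that feeds the pathway, averaged 10.82 ± 0.21 in Runx3-/- and 11.09 ± 0.45 in WT (SD, n = 3 each). Fdps, which makes farnesyl diphosphate, reached log2 5 on 1 array and is read near background. Mvk, mevalonate kinase, was below log2 5 on all arrays, at 3.87, 3.76 and 3.95 in Runx3-/- and 3.93, 4.10 and 3.99 in WT, and was not tested.

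None of the 10 genes from squalene to cholesterol met the thresholds, with changes from -0.47 to 0.69. The enzymes at the 2 ends of this range act next to each other. Cyp51, the lanosterol demethylase, had a log2 signal of 6.91, 7.88 and 7.25 on the Runx3-/- arrays and 6.91, 6.98 and 6.07 on the WT arrays. The difference of 0.69 (1.62-fold, 95% interval -0.11 to 1.502, limma adjusted p = 0.370) was of the size of the spread, with WT replicate 3 the lowest array by far. A dimmer probe set of Cyp51 went the opposite way, by -0.38, and reached log2 5 on WT replicate 3 alone. Another was below log2 5 on all arrays. Lss, the synthase that closes the lanosterol rings just before that step, was at 7.56, 7.92 and 7.17 in Runx3-/- and 8.06, 8.05 and 7.95 in WT. Its groups did not overlap, but Runx3-/- replicate 2 came close to the WT arrays, and the change was -0.47 (1.38-fold, limma adjusted p = 0.377). Tm7sf2, a sterol reductase, was likewise lower on each Runx3-/- array, at 5.49, 5.78 and 5.62 against 5.83, 6.00 and 6.00 in WT, with a change of -0.31 (limma adjusted p = 0.450). Fdft1, squalene synthase and the entry to the sterol branch, differed by 0.20 on its brightest probe set and by -0.029 on another. Of the remaining 6 genes, Ebp, a sterol isomerase, differed by -0.14, and Sqle, squalene epoxidase, lay close to the detection level, at 5.61 ± 0.37 in Runx3-/- and 5.27 ± 0.39 in WT (SD, n = 3 each).

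The 5 genes that control SREBP did not meet the thresholds either. Srebf1, whose product leans towards fatty acid genes, was at 10.06, 9.80 and 9.55 on the Runx3-/- arrays and 9.46, 10.11 and 9.69 on the WT arrays. Srebf2, whose product leans towards cholesterol genes, was at 8.14, 7.41 and 6.86 in Runx3-/- and 7.46, 7.94 and 7.44 in WT. The groups of both genes overlapped, with changes of 0.053 and -0.14, and a further probe set of Srebf2 went the opposite way, by 0.37. Scap, the escort of SREBP, was at 11.001, 10.17 and 10.29 in Runx3-/- and 10.67, 11.20 and 11.23 in WT. Its change was -0.55 (1.46-fold, limma adjusted p = 0.392), and Runx3-/- replicate 1 lay inside the WT range. Without that array the change of Scap was -0.80 and met the thresholds (limma unadjusted p = 0.018). Insig1, which is itself a classical SREBP target, was at 7.17, 7.88 and 7.04 in Runx3-/- and 6.18, 6.73 and 7.41 in WT, a change of 0.59 (1.51-fold, limma adjusted p = 0.456). WT replicate 3 lay above 2 of the Runx3-/- arrays.

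Insig2, which shares the function of Insig1, was read differently by its probe sets. The brightest was at 9.03, 9.33 and 9.16 in Runx3-/- and 9.33, 9.01 and 9.20 in WT, with a change of -0.0065. A second differed by -0.030. Another was at 8.56, 8.97 and 8.78 in Runx3-/- and 9.45, 9.37 and 9.42 in WT. Its groups did not overlap, and its change of -0.64 had an unadjusted p of 0.015 and an adjusted p of 0.242 when limma was run on every probe set. Which transcript each probe set of Insig2 reads was not examined.

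**Figure D2:**
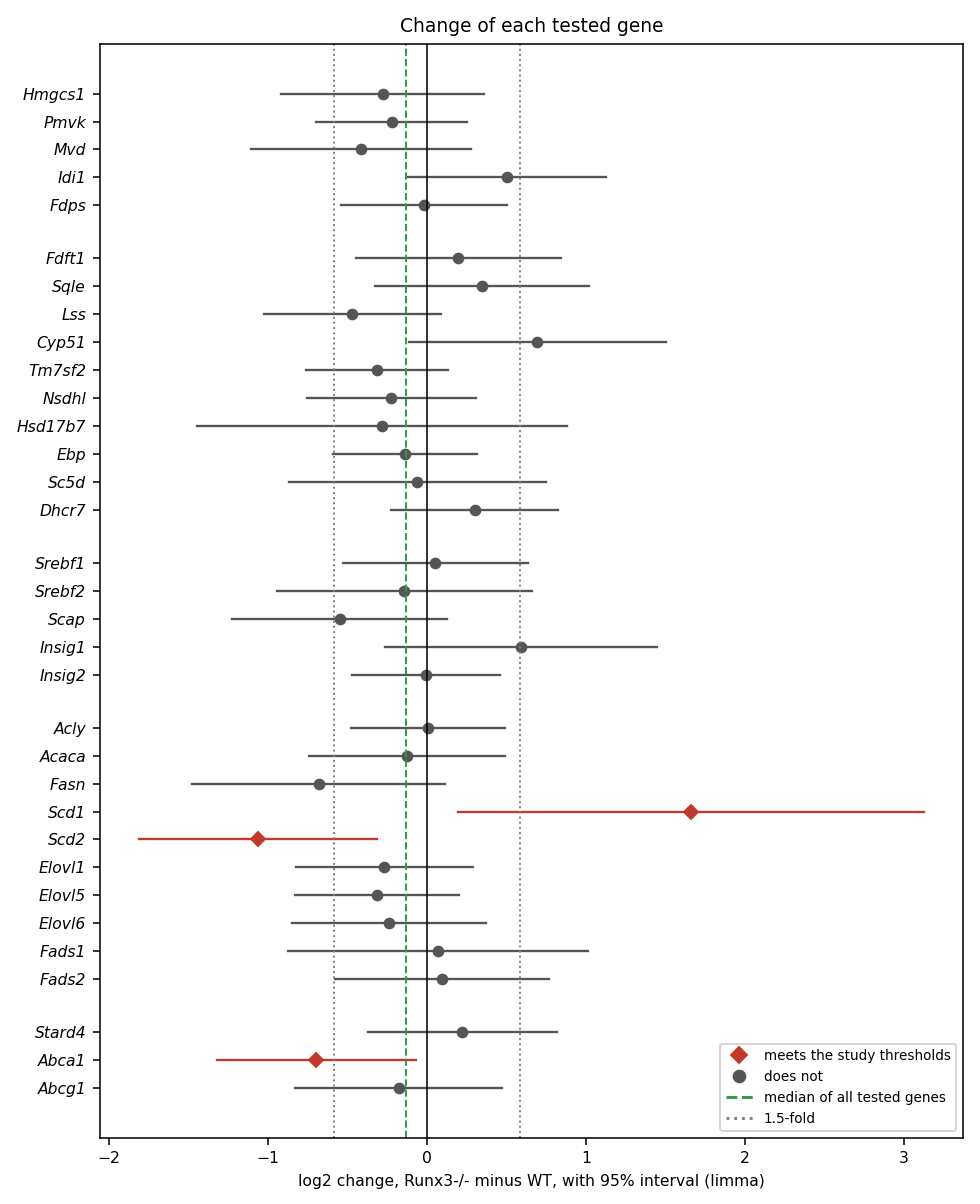
Difference between Runx3-/- and WT (log2, Runx3-/- minus WT, on the horizontal axis) for the 33 tested genes in their role groups, with 95% intervals from limma, dotted lines at 1.5-fold and a dashed line at the median of all tested genes. Scd1, Scd2 and Abca1, drawn as red diamonds, are the genes that met the study's thresholds, and the interval of each other gene includes 0.

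Promoter sequences are shown for 3 genes of the sterol and SREBP groups with positive changes on their brightest probe sets (Cyp51, Insig1 and Idi1). Those of Abca1 and of Elovl5, whose groups did not overlap on the brightest probe set, are also shown. They are the 250 bases before the start of each gene in RefSeq, assembly GRCm38.p6, written 5′ to 3′ along the gene's own strand. Positions are chr5:4104698-4104947 (minus strand) for Cyp51, chr5:28071162-28071411 (plus strand) for Insig1, chr13:8885356-8885605 (plus strand) for Idi1, chr4:53159896-53160145 (minus strand) for Abca1 and chr9:77917115-77917364 (plus strand) for Elovl5. Capitals mark the core of a sterol regulatory element, TCACCNCA, and the E-box CACGTG, the 2 kinds of site that SREBP proteins are known to bind, on either strand. Lss and Tm7sf2, whose groups did not overlap either, had neither site in their windows and are not shown. Idi1 had neither site in its window as well, and is shown for its change alone.
Cyp51: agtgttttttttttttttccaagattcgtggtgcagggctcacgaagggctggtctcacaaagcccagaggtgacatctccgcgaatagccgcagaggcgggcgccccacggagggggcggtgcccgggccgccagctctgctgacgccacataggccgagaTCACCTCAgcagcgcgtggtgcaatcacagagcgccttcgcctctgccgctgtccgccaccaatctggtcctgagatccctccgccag
Insig1: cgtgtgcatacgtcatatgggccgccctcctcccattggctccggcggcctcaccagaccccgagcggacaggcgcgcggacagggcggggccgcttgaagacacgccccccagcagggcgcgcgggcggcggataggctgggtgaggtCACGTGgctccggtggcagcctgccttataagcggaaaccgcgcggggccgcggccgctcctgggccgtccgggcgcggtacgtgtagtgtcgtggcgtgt
Idi1: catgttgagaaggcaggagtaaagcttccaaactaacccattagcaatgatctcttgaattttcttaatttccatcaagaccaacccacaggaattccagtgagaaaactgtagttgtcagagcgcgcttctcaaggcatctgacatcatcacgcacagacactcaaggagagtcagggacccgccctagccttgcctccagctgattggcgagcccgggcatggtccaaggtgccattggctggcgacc
Abca1: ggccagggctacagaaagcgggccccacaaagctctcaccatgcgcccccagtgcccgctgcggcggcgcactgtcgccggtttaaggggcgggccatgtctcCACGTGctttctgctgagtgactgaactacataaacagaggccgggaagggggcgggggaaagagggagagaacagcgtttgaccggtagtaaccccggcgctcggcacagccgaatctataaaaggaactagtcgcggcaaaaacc
Elovl5: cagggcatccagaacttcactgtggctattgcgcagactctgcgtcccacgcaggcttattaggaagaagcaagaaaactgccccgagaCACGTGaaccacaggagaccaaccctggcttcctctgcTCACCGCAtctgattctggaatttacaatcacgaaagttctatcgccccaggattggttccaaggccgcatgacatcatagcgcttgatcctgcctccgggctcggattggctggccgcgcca

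The RefSeq table held such a window for 27 of the 35 genes, and Abcg1, Fads1, Fdft1, Fdps, Scd1, Scd2, Sqle and Stard4 were not among them. Some genes had several windows, and a motif in any of them counted. The 27 include Acat2 and Mvk, which were not tested, while the shares set beside them are of tested genes only. The sterol regulatory core stood in 5 of the 27 (18.5%), namely Cyp51, Elovl5, Hmgcs1, Hsd17b7 and Srebf2, against 4.15% of the 7846 tested genes with a window. In Cyp51 its first base lay at position -88 and in Elovl5 at -123, counted from the start site. The letters of this core were settled on after the Cyp51 promoter had been read. The E-box stood in 7 of the 27 (25.9%), among them Insig1 and Abca1, against 10.2% of tested genes. The CCAAT box (CCAAT), bound by NF-Y, stood in 20 of 27 (74.1%) against 40.7%, and the GC box (GGGCGG), bound by SP1, in 22 of 27 (81.5%) against 65.2%. The RUNX motif (TGTGGT, or the same letters with C for the second T, the last T or both) stood in 16 of 27 (59.3%), including Cyp51, Abca1 and Elovl5, against 46.6% of tested genes. Each motif was sought on both strands, and in Elovl5 the sterol regulatory core and a RUNX motif share letters. A match of letters is a description of the window and was not set against binding.

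Of the 10 fatty acid genes 1 was higher (against 4.89% of all genes) and 1 lower (against 8.86%) at the thresholds, and these were 2 stearoyl-CoA desaturases, which put the first double bond into saturated fatty acids. Scd1 had a log2 signal of 9.93, 9.09 and 8.47 on the Runx3-/- arrays and 8.75, 6.29 and 7.46 on the WT arrays. WT replicate 1 lay above Runx3-/- replicate 3, so the groups overlapped, and the WT arrays spread over more than 2 log2 units. The change was 1.66 (3.16-fold, 95% interval 0.20 to 3.12, limma unadjusted p = 0.031, adjusted p = 0.264). Scd2 was at 11.87, 10.73 and 10.82 in Runx3-/- and 12.16, 12.14 and 12.29 in WT. The 3 WT arrays lay within a narrow band and all Runx3-/- arrays below it, with replicate 1 the nearest. The change was -1.06 (2.09-fold, 95% interval -1.81 to -0.31, limma unadjusted p = 0.012, adjusted p = 0.189). A second probe set of Scd2, at log2 5 or more on all arrays, differed by -0.098, at 8.57, 7.87 and 7.99 in Runx3-/- and 8.77, 8.50 and 7.45 in WT. A dim one differed by -0.84, at 4.19, 4.25 and 4.27 in Runx3-/-, all below log2 5, and 5.78, 3.91 and 5.56 in WT. With the mean of the 3 probe sets Scd2 still met the thresholds, with a change of -0.67. Scd1 and Scd2 lie in 1 cluster with Scd3 and Scd4, and whether their probe sets read each other's transcripts was not tested.

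The call of Scd1 was lost without Runx3-/- replicate 1, where the change was 1.28 (limma unadjusted p = 0.110). It was also lost without WT replicate 2, where the change was 1.06 (limma unadjusted p = 0.093), without Runx3-/- replicate 2 (1.70) or WT replicate 3 (1.64), and with no filter on level (1.66), where the change stayed about as large and the limma unadjusted p was 0.066 to 0.071. Scd2 met the thresholds in each of the 17 alternatives tried, with changes from -1.43 to -0.67. Markers of other cells differed between the groups, and the only ones called lower were Camp and Itgax. Counts of these markers stand against 4.89% of all genes called higher and 8.86% called lower. Of the 8 tested basophil and mast cell markers 7 were higher in Runx3-/- and 0 lower, with a mean log2 signal of 10.54 to 11.50 on the Runx3-/- arrays and 8.99 to 9.13 on the WT arrays. Of 10 macrophage and monocyte markers 2 were higher and 0 lower, with a mean of 9.09, 7.27 and 4.67 in Runx3-/- and 6.15 to 6.18 in WT, so that Runx3-/- replicate 1, the array highest in Scd1 and nearest to WT in Scd2, was also the highest in these. Of 8 B cell and plasma cell markers 3 were higher and 0 lower, with means of 7.88, 7.28 and 6.95 in Runx3-/- and 7.12, 5.79 and 5.83 in WT, so that within each group the array highest in Scd1 was also the highest in these. Of 7 neutrophil markers 0 were higher and 1 lower, with means of 7.44, 4.92 and 4.57 in Runx3-/- and 7.55, 8.39 and 4.21 in WT. That marker, Camp, was below log2 5 on all Runx3-/- arrays and on WT replicate 3, and changes in this list were above 0 for 3 genes. Of 5 dendritic cell markers 0 were higher and 1 lower, Itgax (4.01-fold), with means of 6.27 to 6.78 in Runx3-/- and 6.34 to 7.004 in WT. Changes in this list were above 0 for 3 genes and below 0 for 2, with a median of 0.36, so Itgax does not stand for the list. Of 4 T cell markers 0 were higher and 0 lower, with means of 6.38 to 7.53 in Runx3-/- and 6.49 to 7.47 in WT. Among the Runx3-/- arrays, replicate 1 had the highest mean in each of these lists of other cells. The NK cell markers had means of 13.07 to 13.38 in Runx3-/- and 12.95 to 13.44 in WT, with 0 of 11 higher and 1 lower. Mcpt1, Fcgr1 and Pax5 stayed below log2 5 on all arrays. The part of these cells in the signals of the desaturases was not tested, and in sorted bulk samples fewer cells of a type and less RNA per cell cannot be told apart.

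The enzymes upstream of the desaturases did not meet the thresholds. Fasn, the fatty acid synthase, came nearest, at 11.24, 10.14 and 10.38 in Runx3-/- and 10.83, 11.59 and 11.38 in WT. Runx3-/- replicate 1 lay inside the WT range and the other Runx3-/- arrays below it. The change was -0.68 (1.60-fold, 95% interval -1.47 to 0.11, limma adjusted p = 0.372), and without Runx3-/- replicate 1 it was -1.004 (limma unadjusted p = 0.012). Acly, which splits citrate to supply cytosolic acetyl-CoA, was at 13.37, 13.25 and 13.11 in Runx3-/- and 13.04, 13.49 and 13.17 in WT, a change of 0.0077 with a 95% interval of -0.48 to 0.49. Acaca, the carboxylase that commits acetyl-CoA to fatty acids, differed by -0.12 (95% interval -0.74 to 0.49).

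Among the elongases, Elovl5 extends polyunsaturated fatty acids. On its brightest probe set it was lower on each Runx3-/- array, at 12.50, 12.63 and 12.62 against 12.71, 12.74 and 13.25 in WT. The gap between the groups was small beside the spread of the WT arrays, and the change was -0.31 (limma adjusted p = 0.508). On the other probe set of Elovl5, of similar brightness, the groups overlapped, with a change of -0.26. Elovl6, which makes stearate from palmitate, differed by -0.24 on its brightest probe set, by -0.39 on a second and by 0.33 on another, so that its direction depends on the probe set. Elovl1, an elongase of very long chains, differed by -0.27. Fads1 and Fads2, the desaturases of polyunsaturated fatty acids, differed by 0.071 and 0.096, and Fads2 was below log2 5 on 2 of the 6 arrays.

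**Figure D3:**
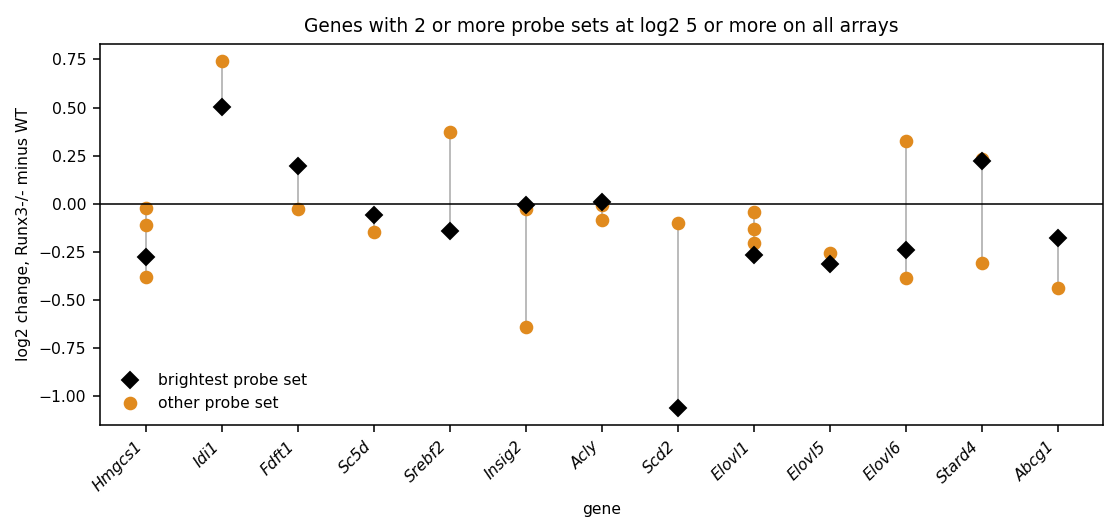
Log2 change, Runx3-/- minus WT (vertical axis), of every probe set at log2 5 or more on all arrays, for the 13 genes with at least 2 of them, with the brightest as a black diamond. In 7 genes the probe sets go opposite ways or differ by over 1.5-fold, the widest gap being that of Scd2 (-1.06 and -0.098).

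Of the transport genes, Abca1, which hands cholesterol to lipid-poor apolipoprotein and is a classical LXR target, was at 9.77, 9.08 and 9.13 on the Runx3-/- arrays and 10.35, 9.80 and 9.91 on the WT arrays. Each Runx3-/- array lay below each WT array, the closest pair being Runx3-/- replicate 1 and WT replicate 2. The change was -0.69 (1.62-fold, 95% interval -1.32 to -0.070, limma unadjusted p = 0.034, adjusted p = 0.274). It met the thresholds in 10 of 17 alternatives. The call was lost with each array centred on its median (-0.57), with quantile normalization (-0.60) and with the mean of all probe sets (-0.29). It was also lost without Runx3-/- replicate 2 (-0.57), Runx3-/- replicate 3 (-0.60), WT replicate 1 (-0.53) or WT replicate 3 (-0.75). Abcg1, another exporter and LXR target, differed by -0.18 (95% interval -0.83 to 0.48). Stard4, which carries sterol between membranes and is an SREBP target, was at 8.66, 9.23 and 8.73 in Runx3-/- and 8.99, 8.57 and 8.39 in WT. Its change was 0.22, and 2 further probe sets differed by 0.23 and -0.31.

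Non-overlap of the groups was seen for 5 of the 33 members (15.2%), all with Runx3-/- below WT, against 22.8% of all genes in either direction and 16.8% with Runx3-/- below. These counts rest on the brightest probe set of each gene. On it no member had all Runx3-/- arrays above all WT arrays, against 5.98% of all genes.

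The members did not vary as 1 block between arrays. Runx3-/- replicate 2 held the highest value of 6 members, Idi1, Sqle, Cyp51, Insig1, Insig2 and Stard4 (18.2% of members, against 11.8% of all genes). All 6 belong to sterol synthesis, its control or sterol transport. The same array held the lowest value of 10 members, of which 6 were fatty acid enzymes (Acaca, Fasn, Scd2, Elovl1, Elovl6 and Fads1) and 4 were sterol genes (Mvd, Scap, Abca1 and Abcg1), or 30.3% of members against 23.8% of all genes. Runx3-/- replicate 1 held the highest value of 9 members (27.3%, against 17.7% of all genes), of which 5 were fatty acid enzymes (Acaca, Scd1, Elovl6, Fads1 and Fads2). Runx3-/- replicate 3 held the highest value of no member, and of 7.50% of all genes. The highest value fell on WT replicate 1 for 3 members, on WT replicate 2 for 8 and on WT replicate 3 for 7. Leaving out Runx3-/- replicate 2 lowered the changes of Idi1 to 0.27, of Cyp51 to 0.43 and of Insig1 to 0.33. These groupings were noticed after the values had been seen and carry no test.

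**Figure D4:**
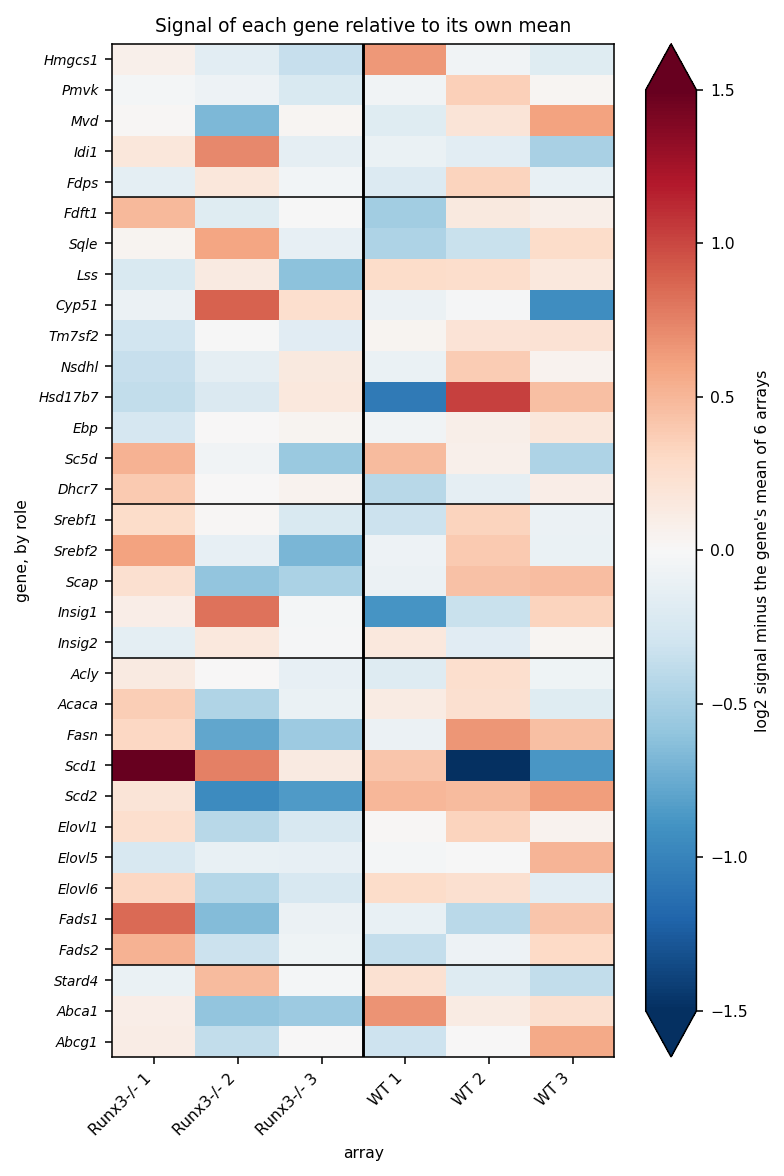
Log2 signal of each tested gene minus its own mean over the 6 arrays (colour scale), with the 3 Runx3-/- arrays left of the 3 WT arrays and genes ordered by role. Runx3-/- replicate 2 is red for Idi1, Sqle, Cyp51, Insig1 and Stard4 and blue for Fasn, Scd2, Mvd, Scap and Abca1, so that genes of the sterol groups go both ways on this array.

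Lipid genes around the pathway were described from 6 further lists with 110 genes, of which 85 were tested. At the study's thresholds 3 were higher and 12 lower in Runx3-/- (17.6%, against 13.8% of all genes). Npc1, which lets cholesterol out of lysosomes, was at 8.43, 8.06 and 8.54 on the Runx3-/- arrays and 10.06, 10.38 and 9.99 on the WT arrays. The groups stood more than 1 log2 unit apart, and the change was -1.80 (3.48-fold lower, 95% interval -2.32 to -1.28, limma adjusted p = 0.037). Npc1 was the only gene of the 110 past BH 5%. It met the study's thresholds in each of 17 alternatives and BH 5% in 9 of them, with adjusted p from 0.013 to 0.144. Stard3, a sterol carrier of late endosomes, was 1.72-fold lower (limma adjusted p = 0.134), and Erlin1, an endoplasmic reticulum protein tied to INSIG and SREBP control, was 1.52-fold lower (limma adjusted p = 0.285). Erlin1 met the thresholds in only 8 of 17 alternatives and lost its call with, among others, median centring (-0.48), the mean of its probe sets (-0.32) and without WT replicate 2 (-0.39). The other probe set of Erlin1 in that mean was below log2 5 on all arrays.

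Receptors that bring lipoproteins into cells were among the genes that were higher. Vldlr was at 7.82, 6.50 and 7.13 in Runx3-/- and 6.37, 5.05 and 4.62 in WT, a rise of at least 3.19-fold (limma adjusted p = 0.169). Its other 2 tested probe sets differed by 0.66 and 1.03, and 3 more were below log2 5 on all arrays. The call was lost with the brightest probe set that is not marked as cross-hybridising (0.66, limma unadjusted p = 0.156) and with the mean of all probe sets (0.64, limma unadjusted p = 0.071). Lrp1 was at 7.19, 5.49 and 5.93 in Runx3-/- and 4.47, 4.498 and 4.93 in WT, below log2 5 on all WT arrays, a rise of at least 2.30-fold (limma adjusted p = 0.159). Runx3-/- replicate 1 was the highest array for both receptors. Hacd4, a dehydratase of the elongation cycle, was at 12.14, 10.17 and 10.43 in Runx3-/- and 8.94, 8.74 and 9.13 in WT, 3.94-fold higher (limma adjusted p = 0.137). Runx3-/- replicate 1 stood well above the other Runx3-/- arrays in Hacd4. It was also the highest Runx3-/- array in the mean of every marker list of other cells, and the part of those cells in Hacd4 was not tested.

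The isoprenoid branches that leave the mevalonate pathway had 4 of 12 tested genes lower (33.3%, against 8.86% of all genes) and 0 higher (against 4.89%), with a median change of -0.39 against -0.13 over all genes. Dhdds, which starts dolichol synthesis, was 1.98-fold lower (limma adjusted p = 0.182). Pdss2 and Coq2, enzymes of ubiquinone synthesis, were 1.72-fold and 1.60-fold lower, and Rce1, a protease that trims prenylated proteins, was 1.54-fold lower, with limma adjusted p of 0.212 to 0.231 for these 3. Over the whole list the groups did not overlap, with Runx3-/- below WT, for 5 of the 12 tested genes, against 16.8% of all genes. Under median centring Coq2 (-0.56) and Rce1 (-0.497) lost their calls, and under quantile normalization Rce1 did (-0.58). A further probe set of Dhdds differed by -0.32, and another was below log2 5 on all arrays. With the mean of its probe sets Dhdds lost its call (-0.45). Leaving out 1 array also ended calls of Coq2 (Runx3-/- replicate 2, WT replicate 2 or WT replicate 3, with -0.55, -0.58 and -0.60), Rce1 (Runx3-/- replicate 2 or 3, -0.55 and -0.57) and Pdss2 (Runx3-/- replicate 2 or WT replicate 2, -0.57 and -0.74). In the list of fatty acid activation and further elongation enzymes 1 of 14 was higher (Hacd4), against 4.89% of all genes. In the same list 2 were lower, against 8.86% of all genes. They were Acss1, a mitochondrial acetyl-CoA synthetase (1.74-fold), and Elovl7, an elongase (1.68-fold). Acss1 met the thresholds in 16 of 17 alternatives and lost its call with the mean of its probe sets (-0.32). In that mean, every Acss1 probe set other than the brightest was below log2 5 on all arrays. Elovl7 met the thresholds in only 7 of 17 alternatives, and without WT replicate 1 its change was -0.45. Other probe sets of Elovl7 differed by -1.14, -0.90, -0.73, -0.29 (near log2 5) and -0.13, and the groups overlapped only in the last. In glycerolipid and phospholipid synthesis 2 of 20 were lower, Ptdss2, a phosphatidylserine synthase (1.77-fold), and Agpat2, an acyltransferase of phosphatidic acid synthesis (1.67-fold). In fatty acid oxidation 1 of 19 was lower, Eci1, an enoyl-CoA isomerase (1.62-fold). The shares of glycerolipid and oxidation genes called lower, 10.0% and 5.26%, were near or below the 8.86% of all genes. Agpat2 met the thresholds in 14 of 17 alternatives and Eci1 in 13. Median changes in the lists of fatty acid activation, glycerolipid synthesis and oxidation were -0.079, -0.20 and -0.26.

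**Figure D5:**
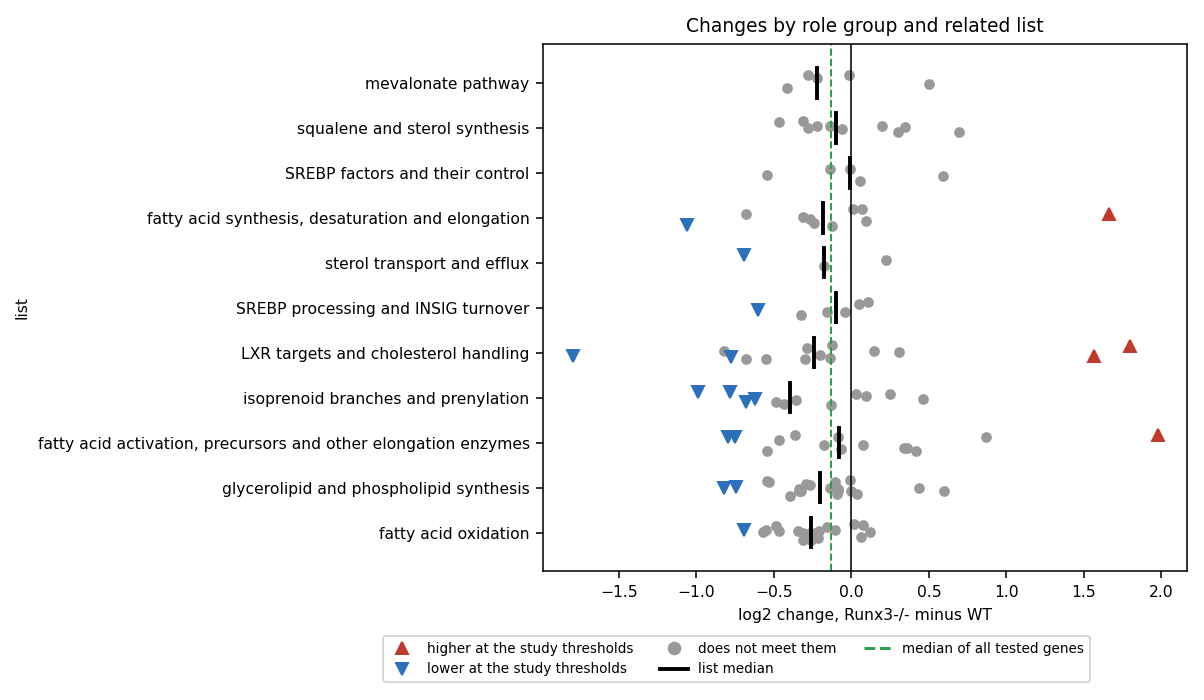
Horizontal axis: log2 difference, Runx3-/- minus WT, with a point for every tested gene of the 5 role groups and the 6 related lists, with the list median as a black bar and the median of all tested genes as a dashed line. Red triangles are genes higher and blue triangles genes lower at the study's thresholds, with Npc1 (-1.80) at the far left and Hacd4, Vldlr, Scd1 and Lrp1 at the far right.

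Between 17074 and 17771 probe sets (37.9% to 39.4%) were at log2 5 or more on each array. Runx3 itself was at 7.76, 8.51 and 8.68 in Runx3-/- and 10.11, 11.56 and 10.73 in WT, 5.59-fold lower and below WT on each array (limma adjusted p = 0.057). Of 14 cell cycle genes 8 were higher in Runx3-/- (57.1%, against 4.89% of all genes) and 0 lower (against 8.86%), with means of 10.31 to 10.99 in Runx3-/- and 9.17 to 10.12 in WT, and their part in the lipid genes was not tested.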

How the data were processed

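Gene expression of resting splenic NKC was measured on Affymetrix mouse expression arrays, 3 from Runx3-/- and 3 from WT mice. The authors ran GC-RMA on the scans, and the deposited table holds the resulting log2 signals of 45101 probe sets on each array. Partek and GCRMA, without versions, come from the submitters' processing notes. GC-RMA subtracts a background modelled on base content and brings the arrays close to 1 distribution, with array medians here of 3.42 to 3.52. A change in total RNA per cell is therefore not visible, and dim probe sets follow the background model.

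Of the probe sets, 34945 carried 1 gene symbol, 932 several, 9160 none and 64 were controls. All 81 member probe sets matched the GRCm38.p6 gene table by gene ID. A gene's brightest probe set (mean of 6 arrays) stood for it, and 9545 genes with log2 5 or more on at least 1 array were tested. The study's own background level was not given in the sources used here. Runx3-/- minus WT was fitted by limma 3.58.1 (lmFit, eBayes) in R 4.3.3 on all 6 arrays, with no covariate and BH adjustment over all genes. The study's thresholds were followed, and since its test is not named limma's was used. A fold written as "at least" has an array of the lower group under log2 5, and such values were set to 5. Precision is limited by 3 arrays per group. The fit was tested on simulated data.

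Members and lists were chosen with earlier results of these data known. Named with values on every array were members at the thresholds, with non-overlapping groups, of SREBP control or with disagreeing probe sets, and Runx3. Fdft1 and Elovl6, whose probe sets also disagreed, are given by their changes alone. Further members with values on every array (Idi1, Cyp51, Fasn and Mvk) were chosen after their values were seen. Related genes at the thresholds were named. Replicate numbers were checked for pairing and did not pair the arrays. Alternatives covered the probe set per gene, filter, floor, normalization, moderation, array weights, replicate block and leaving out each array.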

Additional observations from a re-analysis of the deposited data

How the results depend on the processing

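Over 17 alternatives, 6 of which left out 1 array, no member passed BH 5%. The count of members higher at the study's thresholds was 1 and became 0 with no filter on level, and the count lower was 2 and became 1 with the mean of all probe sets, with median centring or with quantile normalization and 4 with array weights; leaving out 1 array gave 0 to 2 higher and 1 to 4 lower. Without Runx3-/- replicate 1 or without WT replicate 1 the count lower was 4, with Scap and Fasn among them, and without Runx3-/- replicate 3 it was 1. Single alternatives also brought Idi1, Lss, Cyp51, Hsd17b7, Insig1 and Insig2 to the thresholds. Leaving out 1 array gave medians of -0.24 to -0.085 and module differences of -0.16 to 0.015. Over all genes 1313 met the thresholds, 967 to 1883 with 1 array left out, and 58 passed BH 5%, against 12 with the mean of all probe sets, 11 with every probe set tested, 1 with no filter, 37 with values raised to log2 5, 203 with array weights and 0 to 127 with 1 array left out, above 0 only without WT replicate 1. For the related lists, leaving out 1 array gave 8 to 19 genes. Median centring moved the median of all genes from -0.13 to -0.0072 and turned the split of calls to 627 higher and 498 lower (44.3% lower), against 467 and 846 (64.4%) as deposited; Scd1 and Scd2 kept their calls. With the replicate block, although the arrays share only their numbers (correlations of same-numbered deviations 0.065, -0.19 and 0.15), 1341 genes met the thresholds and 0 passed BH 5%, with 1 member higher and 2 lower.

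Of 49 genes followed, 14 changed sign in at least 1 alternative, none past the thresholds. With median centring Fdps was 0.10, Sc5d 0.062 and Insig2 0.12. With quantile normalization Sc5d was 0.030, Insig2 0.083 and Fads2 -0.038. With array weights Fdft1 was -0.012, Srebf1 -0.17, Insig2 0.091, Acly -0.13 and Fads2 -0.033. With the mean of all probe sets Srebf2 was 0.12 and Acly -0.073. Outside cross-hybridising probe sets Mvd was 0.039, Fdft1 -0.029 and Acly -0.0081. With every probe set tested, taking the one of smallest p, Srebf2 was 0.37, Acly -0.085 and Stard4 -0.31. Leaving out 1 array gave Abcg1 -0.38 to 0.066, Acaca -0.34 to 0.074, Acly -0.089 to 0.14, Fads1 -0.33 to 0.42, Fads2 -0.14 to 0.28, Fdft1 -0.016 to 0.34, Fdps -0.12 to 0.053, Hsd17b7 -0.88 to 0.16, Insig2 -0.092 to 0.069, Sc5d -0.33 to 0.20, Srebf1 -0.094 to 0.23 and Srebf2 -0.48 to 0.17. The cause of these shifts was not tested. Dim genes such as Mvk, Fdps and Fads2 are limited by background.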
